A study of Mus musculus with 27 samples.

Results

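Livers of 6 mice kept on calorie restriction (CR) were compared, gene by gene, with livers of 7 mice fed a control diet (C) ad libitum. The mice were chosen by the diet in their sample labels and by no measured value, and they are 13 of the 27 mice of the study, which also holds 7 mice on an intermittent diet (INT) and 7 on a medium-fat diet (MF). All were male C57BL/6J mice, housed individually, that went on their diets at 9 weeks of age and were sacrificed at 12 months. CR-fed mice received a daily afternoon portion of AIN-93W-CR nominally set at 30% less energy than C-fed mice ate, and C-fed mice had free access to AIN-93W. The energy intake measured in a sample of mice of each diet showed a larger deficit in CR-fed mice than this nominal one. INT-fed mice alternated weekly between restricted portions and free access to the medium-fat diet, and MF-fed mice had free access to that diet throughout. At the end each mouse was fasted for 4 h, given carboxymethyl cellulose by gavage as a mock dose, and fasted for 6 h more. INT-fed mice were sacrificed in a week of free access to the medium-fat diet. The CR feed was enriched in vitamins and minerals and came once a day, so that less energy, feed composition and meal time cannot be told apart here. Females and other ages were not studied. Each array holds a separate mouse.

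The liver stores and releases glucose, makes fatty acids and cholesterol, burns fatty acids during fasting and disposes of amino nitrogen as urea. In rodents it also expresses many genes at different levels in males and females, a difference set mainly by the pattern of growth hormone release and carried by the transcription factor STAT5b. Calorie restriction is known to act on liver fat, on insulin and growth hormone signalling and on the daily rhythm of feeding.

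RNA of each liver was hybridised to 1 Affymetrix Mouse Gene 1.1 ST array, and a value is the log2 intensity of a gene's probe set, on which 1 unit is a 2-fold difference. Of 18820 genes with a value, 13603 had an intensity above 20 on at least 5 of the 27 arrays and were tested. Over the 13 arrays the median log2 intensity lay between 5.23 and 5.27, and Pearson's r between pairs of arrays, across probe sets, was 0.982 to 0.992. Albumin (Alb), the main plasma protein that hepatocytes make, averaged 13.67 in CR-fed and 13.66 in C-fed mice. The adipocyte hormone genes Adipoq and Lep lay under an intensity of 20 on all 13 arrays. Whole pieces of liver were measured, so that fewer cells of a type and less RNA per cell cannot be told apart.

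Expression differed between CR- and C-fed mice in many genes, mostly by a small amount. At a Benjamini-Hochberg adjusted p under 0.05, limma called 2382 genes, 17.5% of those tested. Of these, 1151 genes (8.46%) were higher and 1231 (9.05%) lower in CR-fed mice. Counts of gene list members given below are to be read against these shares. The median size of a called difference was 1.28-fold, and over all tested genes the median log2 fold change was 0.0038. Differences of at least 2-fold were called in 80 genes higher (0.588%) and 95 lower (0.698%) in CR-fed mice. In 912 tested genes (6.7%) no CR-fed mouse overlapped with a C-fed mouse, and 888 of these were called. Among the genes called at 2-fold or more, all 6 CR-fed mice lay outside the range of the other 21 mice of the study in 46 of the 80 higher and 46 of the 95 lower genes.

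**Figure D1:**
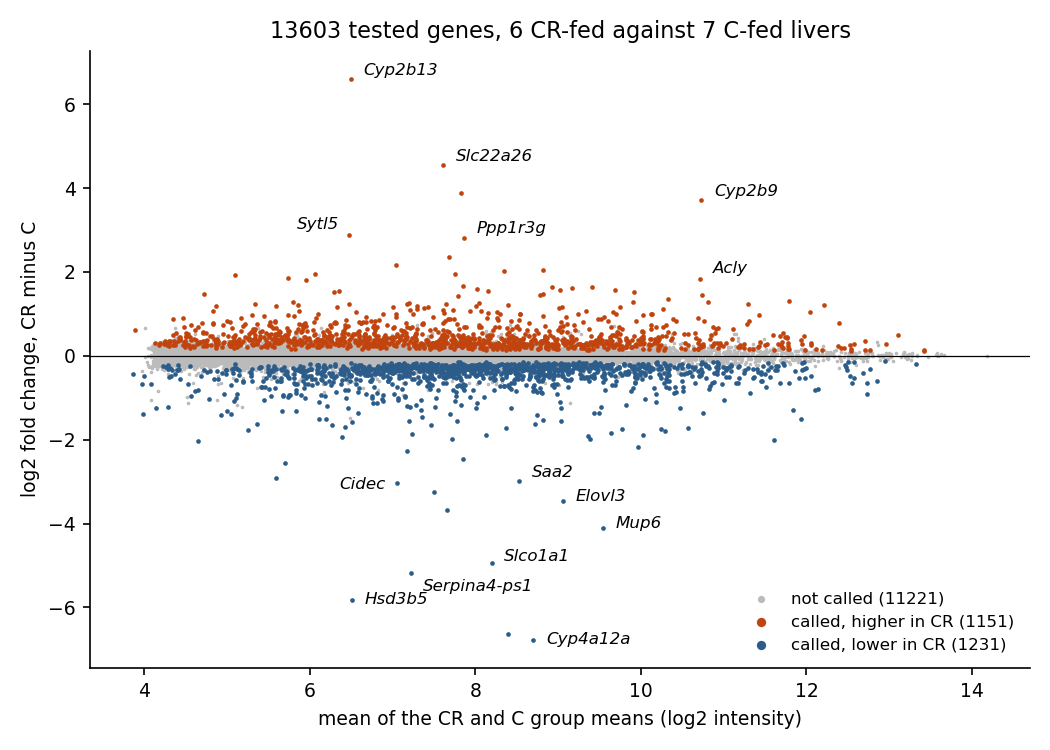
Each point is 1 of the 13603 tested genes, with the mean of the CR and C group means on the x axis (log2 intensity) and the log2 fold change, CR minus C, on the y axis; orange points (1151) were called higher and blue points (1231) lower in CR-fed mice, grey points were not called. Most called genes lie close to 0, and the genes farthest from 0 include Cyp2b13 at 6.61 and Cyp4a12a at -6.77.

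Liver genes known to be higher in male mice were among those that fell furthest, and made up 16 of the 95 genes called at least 2-fold lower. Of 26 tested genes of this kind, 22 were lower and 1 higher in CR-fed mice, with a median log2 fold change of -1.31 against 0.0038 over all tested genes. The single higher member was Cyp2c55, at 0.65, whose call was lost without CR replicates 2, 4, 5 or 6 or C replicates 1, 2 or 4 (adjusted p 0.0546 to 0.135).

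Cyp4a12a, an arachidonic acid hydroxylase of male mouse liver, lay at 4.34, 4.95 and 7.09 (lowest, median and highest log2 intensity) in CR-fed mice, against 11.82, 12.06 and 12.45 in C-fed mice. No CR-fed mouse came near the C-fed mice, and the log2 fold change was -6.77 ± 0.29 (SE, limma adjusted p = 1.33e-15). Its close paralog Cyp4a12b had a log2 fold change of -6.63 ± 0.28 (SE, limma adjusted p = 1.33e-15), but probes for such near-identical genes can read both transcripts. Hsd3b5, a steroid-reducing enzyme, was at 3.08, 3.43 and 4.46 in CR-fed mice, 5 of which were under an intensity of 20, and at 6.71, 9.42 and 11.09 in C-fed mice. Its fitted log2 fold change was -5.82 ± 0.93 (SE, limma adjusted p = 5.44e-05). With values under an intensity of 20 set to it, the mean in CR-fed mice was at least 33.7-fold lower.

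Slco1a1, a transporter that takes bile acids and steroid conjugates into hepatocytes, spanned 4.24 to 7.44 in CR-fed mice (median 5.45), against 9.64 to 11.09 in C-fed mice (median 10.86), a log2 fold change of -4.95 ± 0.54 (SE, limma adjusted p = 2.2e-07). Mup6, a major urinary protein that carries pheromones, spanned 6.34 to 9.01 in CR-fed mice (median 7.33) and 11.39 to 11.88 in C-fed mice (median 11.59). The C-fed mice lay close together for Mup6 (SD 0.15), whereas the CR-fed mice were spread over several-fold in intensity (SD 1.10). All 5 tested major urinary protein genes (Mup3, Mup5, Mup6, Mup20 and Mup21) were lower in CR-fed mice, from -0.54 for Mup3 to -4.11 for Mup6, and this direction held under median centring and cyclic loess scaling. They belong to 1 gene family, and whether their probe sets share signal was not tested. Further male-biased genes that fell were Susd4, a complement regulator (-3.25), Cyp7b1, an oxysterol hydroxylase (-1.74), Cyp2d9, a steroid hydroxylase (-1.36), and Egfr, the epidermal growth factor receptor (-0.59).

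Genes known to be higher in female mouse liver were called only in the opposite direction. Of 22 tested, 14 were higher in CR-fed mice and none lower, with a median log2 fold change of 1.00. The list has 26 genes with a value, and only these 22 passed the intensity minimum. A gene could pass it through the CR arrays alone. The filter thus favours members that are high in CR-fed mice, and can raise both the count and the median. Without any single mouse the count of higher members was 11 to 14, and that of lower male-biased members 21 to 23. Within replicates 1 to 4, 21 male-biased genes were lower and 11 female-biased genes higher, and within replicates 5 to 7 these counts were 13 and 6.

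Cyp2b13 and Cyp2b9, neighbouring P450 genes of the phenobarbital-inducible family, were among the most raised. Their promoters are printed because 248 of the 250 bases before the start sites are identical; the transcribed sequences that the probes read were not compared. Both are RefSeq sequences of GRCm38.p6 on the plus strand, Cyp2b13 at chr7:26061245-26061494 and Cyp2b9 at chr7:26173159-26173408, with the differing bases in capitals.
Cyp2b13: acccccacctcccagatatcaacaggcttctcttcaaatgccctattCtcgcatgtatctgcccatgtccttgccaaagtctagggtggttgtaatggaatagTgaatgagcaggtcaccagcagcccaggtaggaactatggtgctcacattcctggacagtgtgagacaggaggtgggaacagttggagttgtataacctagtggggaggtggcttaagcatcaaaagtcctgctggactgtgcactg
Cyp2b9: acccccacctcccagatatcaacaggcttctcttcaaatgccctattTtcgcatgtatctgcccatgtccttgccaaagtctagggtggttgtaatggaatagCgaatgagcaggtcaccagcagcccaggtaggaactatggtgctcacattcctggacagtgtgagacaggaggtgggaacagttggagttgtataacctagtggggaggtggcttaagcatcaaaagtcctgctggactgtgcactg

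Cyp2b13 lay at 8.90, 9.96 and 10.23 in CR-fed mice, against 2.61, 3.07 and 4.66 in C-fed mice, 6 of which were under an intensity of 20. Its fitted log2 fold change was 6.61 ± 0.45 (SE, limma adjusted p = 3.62e-11), and with the values under that intensity set to it the mean in CR-fed mice was at least 43.2-fold higher. Cyp2b9 was at 12.33, 12.60 and 12.75 in CR-fed mice and at 4.96, 8.74 and 12.00 in C-fed mice. So the C-fed mice ran from near the detection limit to almost the CR level for Cyp2b9 (SD 2.36), and the log2 fold change of 3.71 ± 0.89 (SE, limma adjusted p = 0.00383) became 3.06 without C replicate 6 (adjusted p = 0.0095). Over replicates 5 to 7 alone Cyp2b9 was not called (limma adjusted p = 0.406).

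The organic anion transporter genes Slc22a26 and Slc22a27, also close paralogs, had log2 fold changes of 4.55 ± 0.34 and 3.88 ± 0.41 (SE). For Slc22a26 the values were 9.05, 9.83 and 10.94 in CR-fed mice, against 4.49, 5.15 and 6.47 in C-fed mice, with no overlap. Cux2, a transcription factor known in mice as a female-biased regulator, was at 6.41, 6.64 and 6.92 in CR-fed mice and at 4.51, 4.79 and 5.24 in C-fed mice. With a log2 fold change of 1.85 ± 0.09 (SE, limma adjusted p = 4.83e-14), Cux2 was among the most evenly raised of these genes. Others were Cyp2b10 (2.18), Hao2, a peroxisomal hydroxyacid oxidase (1.93, with 4 C-fed mice under an intensity of 20, or at least 2.93-fold), Fmo2, a flavin monooxygenase (1.63), and Slco1a4, a bile acid and drug transporter (1.56). The female-biased genes that rose varied less between CR-fed mice than between C-fed mice (median SD 0.28 and 0.66 over 14 genes, larger in C-fed mice for 12). For the male-biased genes that fell, the median SD was 0.31 in CR-fed and 0.33 in C-fed mice, and neither comparison of SDs was tested.

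**Figure D2:**
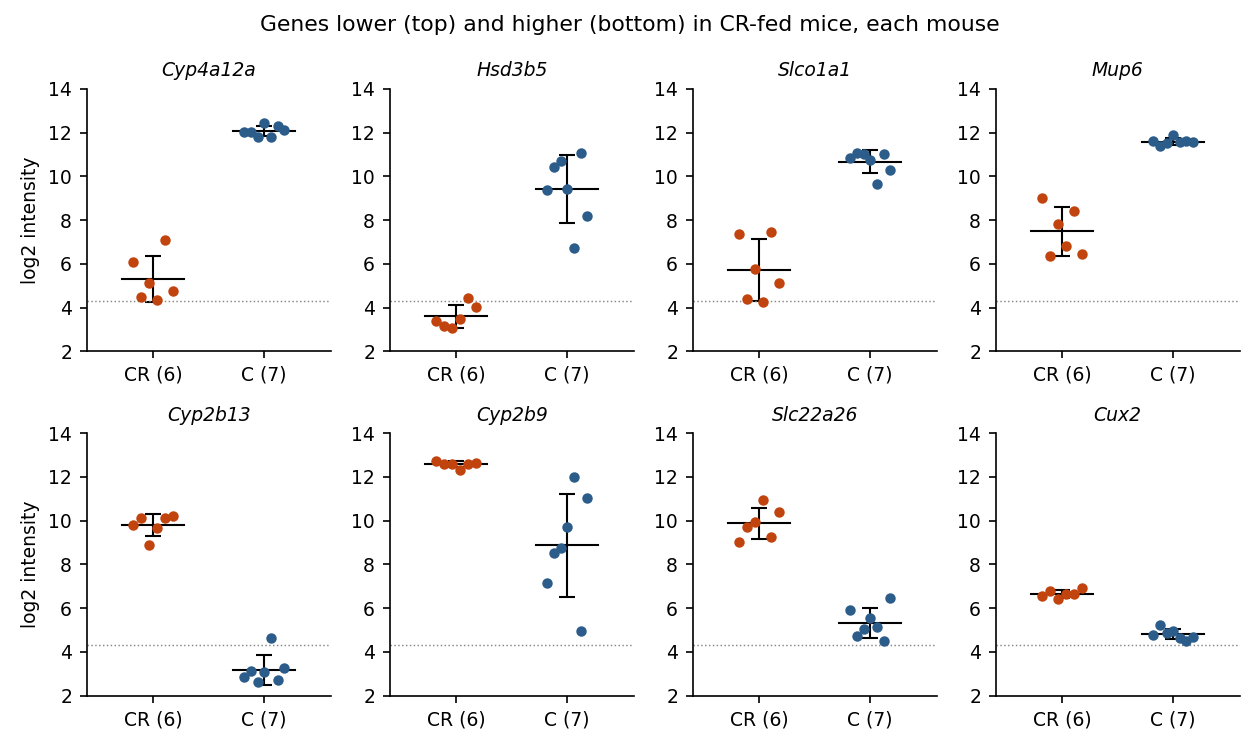
The log2 intensity of 8 genes in each mouse, with CR-fed mice (6) on the left and C-fed mice (7) on the right of each panel; bars are the mean ± SD and the dotted line is an intensity of 20. The male-biased genes Cyp4a12a, Hsd3b5, Slco1a1 and Mup6 (top) and the female-biased genes Cyp2b13, Cyp2b9, Slc22a26 and Cux2 (bottom) do not overlap between the diets, and Cyp2b9 in C-fed mice spans 4.96 to 12.00.

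Of 20 tested genes of the growth hormone and insulin-like growth factor pathway, 2 were higher and 3 lower in CR-fed mice. Their median log2 fold change was -0.09, and over all tested genes 8.46% were called higher and 9.05% lower. The growth hormone receptor gene Ghr was lower by a small amount (-0.24 ± 0.05, SE, limma adjusted p = 0.00229), and Stat5a, a mediator of its signal, was at -0.45 ± 0.10 (limma adjusted p = 0.00179). Igf1, the main growth factor released under growth hormone, had a log2 fold change of -0.07 (limma adjusted p = 0.369) and Stat5b one of 0.13, and neither was called. Of the binding protein genes in the list, Igfbp1 and Igfbp2 were called higher and Igfbp3 and Igfbp4 were not called. Igfbp1, which insulin represses, averaged 11.01 ± 0.34 in CR-fed and 9.65 ± 0.67 in C-fed mice (SD), and Igfbp2 11.17 ± 0.11 and 10.35 ± 0.53. Among 24 insulin signalling and FoxO target genes, 6 were higher and 2 lower (median 0.11). Irs2, the insulin receptor substrate that FoxO factors induce, rose by 0.64 ± 0.18 (SE, limma adjusted p = 0.0116), although over replicates 5 to 7 it was not called (adjusted p = 0.865). Sesn1 and Sesn2, stress-induced inhibitors of the growth kinase mTOR, were higher by 0.38 and 0.40, and Pik3r1, the regulatory subunit of phosphatidylinositol kinase, was lower, at -0.38.

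Of 25 tested genes of fatty acid synthesis, 12 were higher and 1 lower in CR-fed mice and 12 were not called, with a median log2 fold change of 0.25. Averaged over the 25 genes, the mice spanned 10.67 to 11.12 on CR and 10.25 to 10.67 on C, and the groups overlapped at their edges. Acly, which makes cytosolic acetyl-CoA from citrate, lay at 11.30, 11.63 and 12.07 in CR-fed mice, against 9.17, 9.95 and 10.35 in C-fed mice. Its log2 fold change was 1.82 ± 0.20 (SE, limma adjusted p = 2.69e-07), and the groups did not overlap. Fasn, the fatty acid synthase, was at 12.15, 12.40 and 12.79 in CR-fed mice and at 10.65, 11.27 and 11.52 in C-fed mice (log2 fold change 1.30 ± 0.15, limma adjusted p = 7.54e-07). The next steps of the pathway rose too: Acaca, the acetyl-CoA carboxylase, by 1.11, the elongase Elovl6 by 1.05, and Me1, the malic enzyme that supplies NADPH, by 0.98. Gpam, the first enzyme of triglyceride synthesis, rose by 0.89 and Acss2, which activates acetate, by 0.84. The regulator gene Srebf1 (0.22, limma adjusted p = 0.501) and the desaturase gene Scd1 (0.07) were not called. The exception was Elovl3, an elongase that is also male-biased, which fell by 3.46 ± 0.36 (SE, limma adjusted p = 1.31e-07).

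Genes of cholesterol synthesis and uptake showed the same direction, 12 of 21 being higher and none lower (median log2 fold change 0.56). Without any single mouse the count was 10 to 15, and within replicates 1 to 4 and within replicates 5 to 7 it was 4. Promoters of 3 of the genes that rose are shown for a motif they hold. CCAAT is the box bound by NF-Y, a factor known to act with the sterol regulator SREBP on sterol genes, and both strands were searched, so that the reverse reads ATTGG. Matches are in capitals in Insig1 (chr5:28071162-28071411), Hmgcs1 (chr13:119690101-119690350) and Lss (chr10:76531355-76531604), all on the plus strand in RefSeq GRCm38.p6 and each the 250 bases before the start site.
Insig1: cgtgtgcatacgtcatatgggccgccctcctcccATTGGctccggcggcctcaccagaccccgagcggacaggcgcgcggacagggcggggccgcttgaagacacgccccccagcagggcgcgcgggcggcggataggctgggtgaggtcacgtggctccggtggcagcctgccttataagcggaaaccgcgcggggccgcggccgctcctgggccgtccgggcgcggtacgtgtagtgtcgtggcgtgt
Hmgcs1: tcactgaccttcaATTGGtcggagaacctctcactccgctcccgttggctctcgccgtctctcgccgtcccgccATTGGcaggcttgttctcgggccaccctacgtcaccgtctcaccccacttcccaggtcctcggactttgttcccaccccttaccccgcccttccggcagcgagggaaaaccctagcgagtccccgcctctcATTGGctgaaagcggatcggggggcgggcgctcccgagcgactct
Lss: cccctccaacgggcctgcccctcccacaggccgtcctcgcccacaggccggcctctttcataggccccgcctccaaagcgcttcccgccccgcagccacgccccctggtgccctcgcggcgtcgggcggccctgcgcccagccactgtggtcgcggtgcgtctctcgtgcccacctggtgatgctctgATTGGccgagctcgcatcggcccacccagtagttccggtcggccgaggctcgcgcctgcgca
All 10 called members with a sequence and all 7 members that were not called held the motif, so its presence did not separate them. It was in 39.5% of 10750 tested genes with a sequence, at any listed start site, and in 33.8% of 32851 windows of this length. A sterol response element, searched as TCACNCCAC, was in 1 of the 10 called members and 0 of the 7 not called. Among tested genes with a sequence it was in 1.35%.

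Pmvk, the phosphomevalonate kinase, lay at 8.42, 8.97 and 9.27 in CR-fed mice, against 6.91, 7.31 and 7.96 in C-fed mice, a log2 fold change of 1.54 ± 0.17 (SE, limma adjusted p = 2.28e-07). Insig1, which holds back the sterol sensor and is itself induced by SREBP, was at 10.76, 11.55 and 11.95 in CR-fed mice and at 9.68, 10.19 and 10.73 in C-fed mice, a log2 fold change of 1.29 ± 0.21 (limma adjusted p = 8.01e-05). In both genes the groups stood apart, for Insig1 by a narrow margin. Lss, the lanosterol synthase, rose by 1.46 ± 0.20 (SE), Sqle, the squalene epoxidase, by 1.14 ± 0.30, Hmgcs1 by 1.00 ± 0.27 and Cyp51 by 1.00 ± 0.24. Hmgcs1 acts early in the pathway and Cyp51 after the sterol rings are closed. Srebf2, the regulator of this pathway (0.28, limma adjusted p = 0.0513), and Mvd (0.85, limma adjusted p = 0.0622) were not called. Averaged over the 21 genes, CR-fed mice ranged from 9.68 to 10.38 and C-fed mice from 9.03 to 9.82, and the groups overlapped.

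Of 35 tested genes of the lipid droplet coat and of fat storage, 9 were lower and 4 higher in CR-fed mice and 22 were not called (median -0.09). Cidec, which fuses lipid droplets, lay at 5.26, 5.47 and 6.06 in CR-fed mice, against 7.35, 8.75 and 10.26 in C-fed mice. The groups did not overlap, and the log2 fold change was -3.03 ± 0.63 (SE, limma adjusted p = 0.00104). Cidea, of the same family, was under an intensity of 20 in all 6 CR-fed mice and in 2 of the 7 C-fed mice, and its mean in C-fed mice was at least 2.54-fold higher. That bound sets the C mean against log2 intensity 4.32, the value of an intensity of 20. The Cidea call (limma adjusted p = 0.0352) was lost without any 1 of 8 mice: CR replicates 1, 2, 3, 4 and 6 and C replicates 4, 5 and 7, the last 3 giving 0.0877, 0.0864 and 0.0782.

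Fitm1, which partitions triglyceride into droplets, averaged 8.39 ± 0.38 in CR-fed and 10.32 ± 0.45 in C-fed mice (SD), a log2 fold change of -1.92 ± 0.20 (SE, limma adjusted p = 1.62e-07). G0s2, an inhibitor of the lipase that Pnpla2 encodes, fell by 1.53 ± 0.26, the droplet coat gene Plin2 by 0.64 and Pnpla2 itself by 0.44. Mgll (monoglyceride lipase) and Lipe (hormone-sensitive lipase) fell by 0.77 and 0.73. Among those that rose were Vldlr, a lipoprotein receptor (0.75), and Lpin2, a phosphatidate phosphatase (0.54). Averaged over the 35 genes, the mice spanned 8.46 to 8.59 on CR and 8.54 to 9.25 on C. Mogat1, a monoacylglycerol acyltransferase (-1.12, limma adjusted p = 0.0597), and Fgf21, a fasting hormone (-0.23, limma adjusted p = 0.383), were not called. For Mogat1, 5 of the 6 CR-fed mice were under an intensity of 20, and with values under it set to it the log2 fold change was -0.70.

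**Figure D3:**
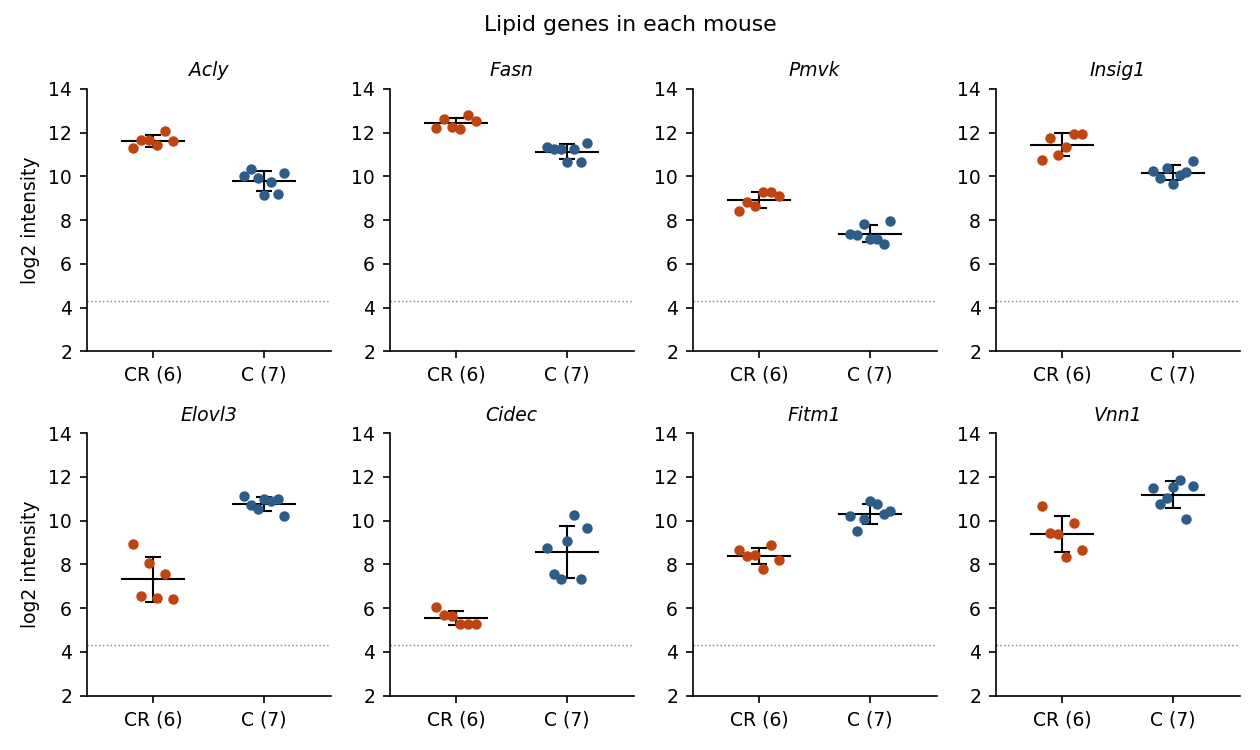
The log2 intensity of 8 lipid genes in each mouse, with CR-fed mice (6) left of C-fed mice (7); bars are the mean ± SD and the dotted line is an intensity of 20. Acly, Fasn, Pmvk and Insig1 (top) are higher and Elovl3, Cidec, Fitm1 and Vnn1 (bottom) lower in CR-fed mice, and only Vnn1 overlaps between the diets.

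Of 37 tested genes of fatty acid oxidation, many of them targets of the nuclear receptor PPARa, 16 were lower and 2 higher in CR-fed mice and 19 were not called, with a median log2 fold change of -0.29. The count of lower members was 15 to 18 when any single mouse was left out, 10 within replicates 1 to 4 and 5 within replicates 5 to 7. Averaged over the 37 genes, the mice spanned 10.26 to 10.67 on CR and 10.24 to 10.93 on C, so that the groups overlapped. The receptor gene Ppara itself was at -0.35 ± 0.08 (SE, limma adjusted p = 0.00239). Cpt1a, the gate of mitochondrial fatty acid entry, averaged 11.81 ± 0.13 in CR-fed and 12.29 ± 0.08 in C-fed mice (SD), a log2 fold change of -0.48 ± 0.06 (SE, limma adjusted p = 2.71e-06). Cpt2 (-0.38), the carnitine carrier Slc25a20 (-0.46), Decr1 (-0.45) and the peroxisomal Eci2 (-0.50) and Crot (-0.50) moved by like amounts. Vnn1, a pantetheinase that marks PPARa activity, fell furthest, by 1.79 ± 0.30 (SE, limma adjusted p = 0.000112). Hadha, a subunit of the trifunctional protein, was at -0.14 and was not called. The 2 genes that rose were Ppargc1a and Cyp4a14. Ppargc1a, a coactivator of fasting metabolism, was at 9.74, 9.99 and 10.15 in CR-fed mice, against 7.89, 8.43 and 8.61 in C-fed mice (log2 fold change 1.63 ± 0.16, SE, limma adjusted p = 9.39e-08). The call of Cyp4a14 (1.20, limma adjusted p = 0.0472) was lost without any of the 6 CR-fed mice and without C replicates 2, 3 or 6, with adjusted p up to 0.0899.

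Bile acid genes were split, with 9 of 32 higher and 9 lower (median 0.03). Slc51b, a subunit of the basolateral bile acid exporter, was at 6.28, 7.24 and 7.87 in CR-fed mice, against 5.29, 5.52 and 5.84 in C-fed mice, without overlap (log2 fold change 1.55 ± 0.20, SE, limma adjusted p = 2.76e-06). Abcc4, another export pump of that membrane, rose by 0.61 and Abcb11, the canalicular bile salt pump, by 0.40. Cyp39a1, an oxysterol hydroxylase, rose by 1.28 and the coreceptor gene Klb by 0.58. The uptake transporter gene Slco1b2 fell by 0.32, Nr1h4, the bile acid receptor FXR, by 0.30, and Hsd3b7, which acts early in bile acid synthesis, by 0.64. Cyp7a1, the rate-limiting enzyme, was not called (0.47, limma adjusted p = 0.296).

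In glucose metabolism the largest change was in Ppp1r3g, which targets protein phosphatase to glycogen. Its values were 8.73, 9.31 and 9.80 in CR-fed mice, against 6.10, 6.20 and 7.49 in C-fed mice, a log2 fold change of 2.82 ± 0.25 (SE, limma adjusted p = 1.15e-08). Gys2, the liver glycogen synthase, fell by 0.43 ± 0.06 (SE, limma adjusted p = 2.3e-05) and Pfkfb3, which makes the activator of glycolysis, by 1.22 ± 0.21 (limma adjusted p = 0.000108). Pklr, the liver pyruvate kinase, rose by 0.47 and Gckr, a regulatory protein of glucose metabolism, by 0.38. Of 26 glycolysis and glycogen genes, 5 were higher and 3 lower, against 8.46% and 9.05% over all tested genes. Of 27 gluconeogenesis genes, 6 were higher and 1 lower (median 0.11). Of the pathway's own enzymes, Pck1 (0.25, limma adjusted p = 0.0822) and G6pc (0.33) were not called. Pcx, the pyruvate carboxylase, was lower, at -0.23 (limma adjusted p = 0.0194). The Pcx call was lost without CR replicate 4 (adjusted p = 0.0614).

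Amino acid breakdown and urea cycle genes were higher more often than lower, 16 against 2 of 48, with a median of 0.09. Got1, the cytosolic aspartate aminotransferase, lay at 12.65, 12.75 and 12.97 in CR-fed mice, against 11.77, 12.04 and 12.29 in C-fed mice, a log2 fold change of 0.78 ± 0.17 (SE, limma adjusted p = 0.00137). Cth, which makes cysteine, rose by 0.76 ± 0.11 (SE, limma adjusted p = 9.56e-06) and Cbs, the step before it, by 0.41. Smaller rises were called for Tat (0.49), Hal (0.65), Slc25a15 (0.51), Asl (0.43), Arg1 (0.37), Glud1 (0.30) and Nags (0.30), which cover tyrosine and histidine breakdown, the ornithine carrier, the urea cycle and its activator. Bhmt, which remethylates homocysteine with betaine, fell by 1.50 ± 0.26 (SE, limma adjusted p = 0.000174). The CR-fed mice ranged from 10.19 to 12.26 for Bhmt and the C-fed mice from 12.41 to 12.81. Among one-carbon and NAD genes, 7 of 31 were higher and 4 lower. Acmsd, which diverts tryptophan breakdown from NAD, was at 9.09, 9.39 and 9.48 in CR-fed mice, against 6.85, 7.30 and 7.82 in C-fed mice (log2 fold change 2.01 ± 0.22, SE, limma adjusted p = 2.47e-07). Mthfd1l rose by 1.00, and Nmrk1, a nicotinamide riboside kinase, fell by 0.71.

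Of 34 tested acute phase genes, 11 were lower in CR-fed mice, none was higher and 23 were not called (median -0.17), and 9 to 12 were lower without any single mouse. Within replicates 1 to 4 the count was 4, and within replicates 5 to 7 it was 2. Saa2, a serum amyloid A induced in inflammation, lay at 6.12, 7.00 and 8.41 in CR-fed mice, against 8.22, 9.82 and 12.21 in C-fed mice. The groups overlapped at their edges, and the mean was 7.98-fold lower in CR-fed mice (limma adjusted p = 0.00482). Saa4, the constitutively made serum amyloid A, averaged 11.69 ± 0.06 in CR-fed and 12.51 ± 0.16 in C-fed mice (SD), a log2 fold change of -0.82 ± 0.08 (SE, limma adjusted p = 1.58e-08). The metallothioneins, which bind zinc and copper, fell by 2.01 ± 0.42 for Mt2 and 1.75 ± 0.46 for Mt1 (SE). Mt2 was at 9.18, 10.56 and 11.69 in CR-fed mice and at 11.88, 12.72 and 13.16 in C-fed mice. Neither metallothionein was called within replicates 1 to 4 (adjusted p = 0.0658 for Mt2 and 0.101 for Mt1).

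Lcn2, a siderophore-binding protein of the acute phase, was at -1.88 ± 0.63 (SE, limma adjusted p = 0.0382), a call lost without CR replicates 1, 2, 3 or 6 or C replicates 4, 5 or 7 (adjusted p 0.0553 to 0.0812). Il1r1, the interleukin receptor, fell by 1.03, the chemokine gene Cxcl1 by 1.46 and the zinc and iron importer gene Slc39a14 by 0.50. Timp1, an inhibitor of matrix proteases, was near background in both groups (4 CR-fed and 4 C-fed mice under an intensity of 20).

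Interferon response genes were lower in 9 of 32 cases and higher in 2 (median -0.26). Tap1, the peptide transporter of antigen presentation, lay at 6.65, 7.06 and 7.66 in CR-fed mice, against 7.63, 7.89 and 8.03 in C-fed mice, a log2 fold change of -0.78 ± 0.15 (SE, limma adjusted p = 0.000359). The immunoproteasome subunit gene Psmb9 was at -0.80 and the antiviral Ifit1 at -0.95, each with overlapping groups. These 3 genes were called within replicates 1 to 4 and not within replicates 5 to 7 (adjusted p = 0.458, 0.583 and 0.733 for Tap1, Psmb9 and Ifit1). Irf7, the regulator of interferon genes, rose by 0.70 ± 0.16 (SE, limma adjusted p = 0.00305). Cd4, the helper T cell marker, was the single lymphocyte marker called, lower by 0.62 ± 0.14, of 17 tested. Of 11 MHC class II genes 2 were lower, against 9.05% of all tested genes. H2-Ob (-0.44) passed the threshold no more once CR replicate 2 (adjusted p = 0.0678) or C replicate 5 (0.0551) was removed. H2-Eb1 (-0.77) was lost without CR replicates 1, 2, 4, 5 or 6 or C replicates 1, 2, 5 or 6 (adjusted p up to 0.122).

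Macrophage markers were called about as often as other genes. Of 28 tested, 5 were higher in CR-fed mice and none lower (median 0.17). Over all tested genes 17.5% were called, 8.46% higher and 9.05% lower. Within replicates 1 to 4, 3 macrophage markers were higher, and within replicates 5 to 7 the count was 0. Clec4f, a receptor of Kupffer cells, lay at 9.79, 9.89 and 10.18 in CR-fed mice, against 9.10, 9.47 and 9.70 in C-fed mice, a log2 fold change of 0.48 ± 0.10 (SE, limma adjusted p = 0.000629). Cd163, a hemoglobin scavenger receptor, rose by 0.77, Cd9 by 0.51, Csf1r by 0.43 and the mannose receptor gene Mrc1 by 0.27. Adgre1, the common macrophage surface marker, was at 0.34 (limma adjusted p = 0.13), Cd68 at -0.02 and the chemokine genes Ccl2 and Ccl3 at -0.10 and -0.29, and none of them was called. The sinusoidal endothelial genes Ehd3 (0.54) and Gpr182 (0.45) rose, 4 of 20 endothelial markers being higher and none lower. Of 32 matrix and stellate cell genes 2 were lower, and none of 6 tested neutrophil markers was called. Hepatocyte markers were 4 higher and 1 lower of 17. The shares over all tested genes given above stand beside these counts too.

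Complement and coagulation genes were lower in 10 of 31 cases and higher in 6. C8a, which joins the membrane attack complex, lay at 9.19, 9.78 and 10.18 in CR-fed mice, against 11.18, 11.38 and 11.70 in C-fed mice, a log2 fold change of -1.73 ± 0.13 (SE, limma adjusted p = 3.06e-10). C6 (-1.84), C8b (-1.06) and C9 (-0.72), of the same complex, fell with it, and C6, C8a and C8b are also among the male-biased genes. The lectin gene Mbl1 fell by 0.69, while the small rises included Cfb (0.22) and the coagulation factor gene F10 (0.29).

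Drug-metabolising genes outside the sex-biased lists went both ways, 7 of 45 being higher and 10 lower. Cyp2c38 rose by 1.45, Cyp2a22 by 1.95 and Fmo4 by 1.01, while Ces3a, a carboxylesterase (-1.28), Ugt3a1, a sugar transferase (-1.17), and Aldh1a1, a retinal dehydrogenase (-0.78), fell. Genes of the NRF2 and glutathione pathway were 8 higher and 1 lower of 33, though the median was 0.03. Gsta4, which conjugates lipid peroxidation products, was at 9.50, 10.32 and 10.71 in CR-fed mice and at 8.87, 9.13 and 9.49 in C-fed mice (log2 fold change 1.05 ± 0.14, SE, limma adjusted p = 4.32e-06). Pgd, of the pentose phosphate pathway, rose by 0.91 ± 0.16 (SE).

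Endoplasmic reticulum chaperone genes were lower in 6 of 28 cases and higher in 2, with a median of 0.0005. Over all tested genes 9.05% were called lower and 8.46% higher. Xbp1, the transcription factor of the unfolded protein response, lay at 10.57, 10.86 and 10.96 in CR-fed mice, against 11.10, 11.40 and 11.95 in C-fed mice, a log2 fold change of -0.66 ± 0.11 (SE, limma adjusted p = 0.000137). Creld2, a chaperone it induces, fell by 0.85 ± 0.20. Over the list, 2 to 6 members were lower when 1 mouse was left out, and 1 within replicates 1 to 4. Of 22 heat shock genes 5 were lower and 3 higher, and the co-chaperone gene Dnaja1 was among the lower ones (-0.39 ± 0.07, SE, limma adjusted p = 0.000145). In autophagy and the proteasome, 2 of 33 were higher and 3 lower, near the shares over all tested genes. Ulk1, the starting kinase, was at 0.35 and Gabarapl1 at -0.31.

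Of 23 tested clock genes, 4 were higher and 2 lower, against 8.46% higher and 9.05% lower over all tested genes. Cry1, a repressor of the clock, averaged 7.55 ± 0.43 in CR-fed and 6.77 ± 0.30 in C-fed mice (SD), a log2 fold change of 0.78 ± 0.18 (SE, limma adjusted p = 0.0031). Bhlhe41, a repressor of clock genes, was under an intensity of 20 in 5 of the 6 CR-fed mice and in no C-fed mouse. Its fitted log2 fold change was -0.95 ± 0.21 (SE, limma adjusted p = 0.00193), and with the values under that intensity set to it the mean in CR-fed mice was at least 1.61-fold lower. Arntl, the clock's activator, spread from 4.74 to 7.54 in CR-fed mice (median 6.64) and from 4.71 to 6.20 in C-fed mice (median 5.15). Its log2 fold change was 1.07 ± 0.33 (SE, limma adjusted p = 0.0211), but 1.78 within replicates 1 to 4 and -0.23 within replicates 5 to 7. With CR replicate 3 or CR replicate 4 left out, it was not called (adjusted p = 0.0719 and 0.0599). Each mouse gives 1 time point, so that a shift in phase and a change in level cannot be told apart.

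**Figure D4:**
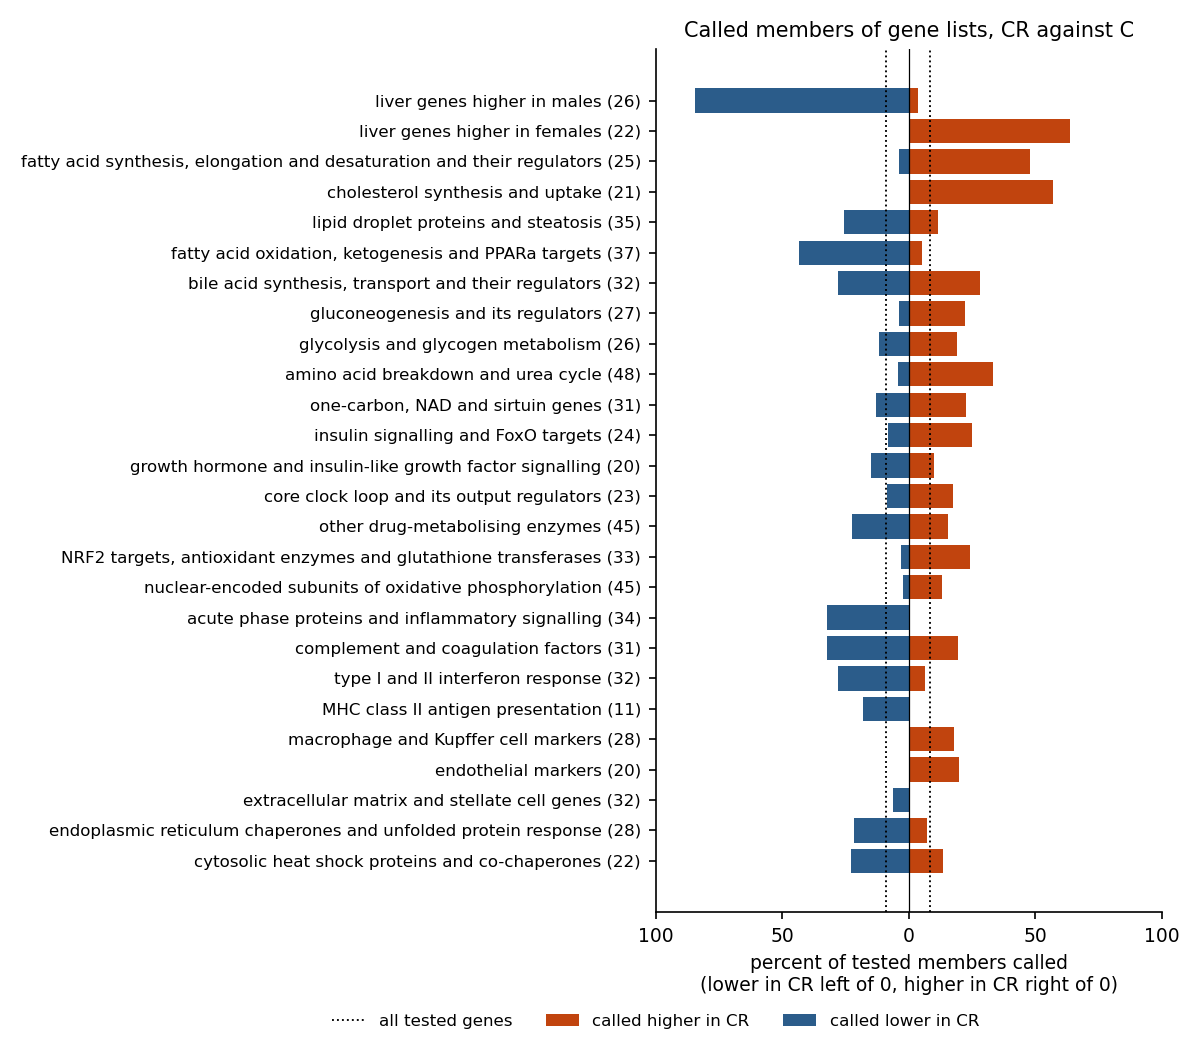
The percent of tested members of 26 gene lists that was called lower (blue, left of 0) and higher (orange, right of 0) in CR-fed mice, with the number of tested members in brackets and dotted lines at the share over all tested genes (9.05% lower and 8.46% higher). Male-biased genes (22 of 26 lower), female-biased genes (14 of 22 higher) and cholesterol genes (12 of 21 higher) stand furthest from the dotted lines among the lists drawn.

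Several of the genes that differed most belong to none of these groups. Sytl5, a vesicle transport protein, lay at 7.24, 7.91 and 8.54 in CR-fed mice, against 4.19, 5.06 and 5.92 in C-fed mice, a log2 fold change of 2.88 ± 0.24 (SE, limma adjusted p = 3.48e-09). Nipal1, of a magnesium transporter family, rose by 2.35 ± 0.32, and Chrna4, a subunit of the nicotinic acetylcholine receptor, by 2.05 ± 0.36 (SE). Lepr, the leptin receptor, was at 9.19, 9.63 and 10.48 in CR-fed mice and at 7.20, 8.23 and 8.78 in C-fed mice, a log2 fold change of 1.65 ± 0.25 (SE, limma adjusted p = 2.39e-05). Slc2a4, the insulin-responsive glucose transporter of muscle and fat, rose by 1.82 ± 0.19, and Nt5e, which makes adenosine from AMP outside the cell, by 1.65 ± 0.20. The other adipocyte genes called, Cidec and Lipe, fell.

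Serpina4-ps1, annotated as a pseudogene of a kallikrein inhibitor, lay at 3.48, 4.47 and 6.37 in CR-fed mice, against 8.68, 9.28 and 12.25 in C-fed mice. Its fitted log2 fold change was -5.17 ± 0.65 (SE, limma adjusted p = 2.2e-06). With the 2 CR-fed mice under an intensity of 20 set to it, the mean in CR-fed mice was at least 30.2-fold lower. Rarres1, a retinoic acid responsive gene, was at 5.14, 5.59 and 6.60 in CR-fed mice and at 9.21, 9.35 and 10.08 in C-fed mice (-3.69 ± 0.22, SE, limma adjusted p = 2.17e-12). Slc8a1, the sodium-calcium exchanger, fell as well (-2.92 ± 0.44, with 3 CR-fed mice under an intensity of 20, or at least 6.32-fold). So did Scara5, a ferritin receptor (-2.55 ± 0.32, with 3 CR-fed mice under that intensity, or at least 5.70-fold). The peptide transporter family member Slc15a5 (-2.28 ± 0.18) and Sult2a8, a sulfotransferase (-2.17 ± 0.29, SE), were also lower. Alas2, the heme synthesis enzyme of red cell precursors, was lower by 1.42 ± 0.14 (SE, limma adjusted p = 4.78e-08), whereas Slc4a1, the red cell anion exchanger, was higher by 0.46. So the 2 tested erythroid markers moved in opposite directions.

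The other diets of the study are set beside CR and C for a few of these genes. Cyp4a12a averaged 5.31 in CR-, 11.89 in INT-, 11.63 in MF- and 12.09 in C-fed mice, and Acly 11.63, 9.83, 9.66 and 9.80 in the same order. Between CR- and INT-fed mice, where limma called 15% of all tested genes, the log2 fold change was -6.58 for Cyp4a12a (limma adjusted p = 2.83e-15) and 1.79 for Acly (limma adjusted p = 3.72e-07). Cyp2b9 averaged 12.59 in CR-, 7.98 in INT-, 11.08 in MF- and 8.87 in C-fed mice. Lcn2 averaged 9.08 in CR-, 9.43 in INT-, 11.32 in MF- and 10.96 in C-fed mice, and Cidea 3.63, 3.98, 6.33 and 5.67 in that order. Neither was called between INT- and C-fed mice (log2 fold change -1.54, limma adjusted p = 0.646 for Lcn2, and -1.69, adjusted p = 0.64 for Cidea), a comparison in which limma called 0 of 13603 genes (0%) and 922 had an unadjusted p under 0.05. The comparisons share their CR or C mice, and INT-fed mice were sampled in their week of free access to the medium-fat diet.

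Samples of each diet carry replicate numbers, of which 1 to 4 are listed together ahead of 5 to 7, and the comparison was repeated within each set. Within replicates 1 to 4 (4 CR- and 4 C-fed mice) 1226 genes were called, 537 higher and 689 lower in CR-fed mice, and within replicates 5 to 7 (2 CR- and 3 C-fed mice) 497, 296 higher and 201 lower. Of the 138 named genes called over all mice, 138 kept their direction in the first set and 137 in the second, where Arntl was the exception. The genes were picked by calls over the same mice that the sets divide, so that this shared direction is no independent check. In these sets 101 and 50 of the 138 were called again.

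**Figure D5:**
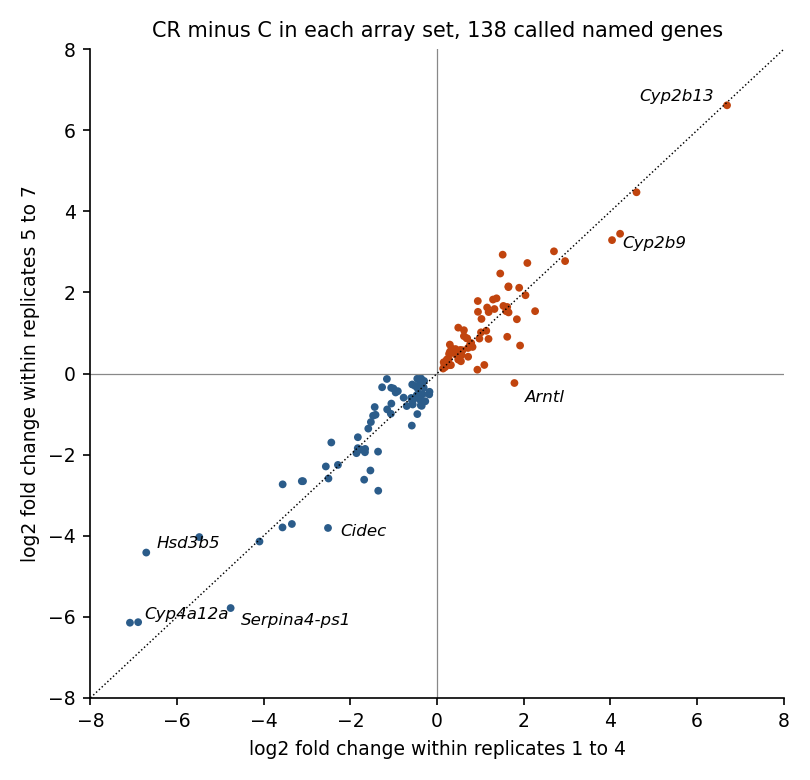
Each point is 1 of the 138 called named genes, with its log2 fold change (CR minus C) within replicates 1 to 4 on the x axis and within replicates 5 to 7 on the y axis; the dotted line marks equal values. The points lie along the line on both sides of 0, and Arntl (1.78 and -0.23) is the one gene with opposite signs. The genes were picked by calls over the same mice that these sets hold.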

How the data were processed

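Values were those of the 13 arrays of CR- and C-fed mice among 27, deposited by the authors as log2 intensities after normalization by RMA. The methods describe probe sets rebuilt by Entrez gene, whereas the deposited table is keyed by the maker's probe sets: of 35556, 21218 name 1 gene, 1881 several and 12457 none. Genes named only by probe sets of several genes have no value here. The probe set of highest mean stood for each of 18820 genes (1386 had several), 18790 of which matched RefSeq. The authors' intensity minimum (above 20 on at least 5 arrays) was kept.

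The 4 diets were fitted together with limma 3.58.1 (R 4.3.3), and CR minus C was tested with Benjamini-Hochberg adjustment over 13603 genes at 0.05. The study's methods state no test across genes. Tables and figures used Python 3.11.15, numpy 2.4.6, pandas 2.3.3 and matplotlib 3.10.9. Promoter sequences are RefSeq's, of GRCm38.p6. The number of arrays limits the precision, with a median standard error of 0.0878 on the log2 scale. Data for CR against C were also simulated over 13603 genes, with independent normal noise in each gene and few genes changed. Of changes of 0.5, 1 and 2 log2 units, 83.6%, 98.5% and 100% were recovered, with 7 false calls. These rates belong to that setting, and the measured data held many more called genes.

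The named genes are the 15 largest changes in each direction among called genes without overlap, up to 4 called members of largest change per gene list (2 where none was called) and the study's 12 Q-PCR genes. Other list members in the text were picked after their values were seen. The gene lists came from general knowledge, and they and the comparison were chosen with earlier results of these data known. Alternatives changed the intensity filter, the scaling, the probe set rule, the variance model, the arrays fitted, the blocks and the mice left out. Identical values between any 2 arrays were few (at most 138 of 35556), so each array counted once.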

Additional observations from a re-analysis of the deposited data

Results flagged for a closer look

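In 298 groups of values (149 named genes in each diet), 1 mouse stood apart from its own group by Dixon's criterion 21 times, 7 times among CR-fed and 14 times among C-fed mice. Chance gives such a mouse in about 1 in 20 groups. Values are log2 intensities, and for each gene the nearest other mouse of the group follows.

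In CR-fed mice replicate 1 was lowest for Xbp1 (10.57, nearest 10.83), Mgst3 (7.72, nearest 8.15) and Nipal1 (8.29, nearest 8.88). Replicate 5 was lowest for Krt7 (5.15, nearest 5.30) and Syvn1 (8.49, nearest 8.71), and replicate 3 for Ulk1 (9.54, nearest 9.74). Replicate 6 was highest for Cps1 (13.16, nearest 13.10).

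In C-fed mice replicate 5 was highest for Cyp2b13 (4.66, nearest 3.29) and for the macrophage genes Cd68 (9.13, nearest 8.22) and Csf1r (9.06, nearest 8.69). Replicate 6 was lowest for Nipal1 (4.77, nearest 6.23), Lipe (7.50, nearest 8.10) and Gabarapl1 (11.27, nearest 11.55), and highest for Cd4 (6.17, nearest 5.57). Replicate 1 was highest for Ppp1r3g (7.49, nearest 6.58) and Dnaja1 (10.69, nearest 10.53), replicate 2 for Slc2a4 (5.74, nearest 5.15) and Cela1 (5.92, nearest 5.56), and replicate 4 for Ifit1 (8.14, nearest 7.39). Replicate 7 was lowest for Bhmt (12.41, nearest 12.66) and Nmrk1 (9.68, the others above 10).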

How the results depend on the processing

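Within replicates 1 to 4, 1226 genes were called (537 higher, 689 lower), within replicates 5 to 7 497 (296 higher, 201 lower), both with fewer mice, and by the methods' one-way test with Tukey's post-test after Benjamini-Hochberg adjustment 1231 (577 higher, 654 lower). The other filters, scalings, variance models and blocks gave 2156 to 2695 calls. Leaving out 1 mouse gave 1919 (without CR replicate 4) to 2450 (without CR replicate 5) calls, and all 2382 genes kept their direction. These fits share most of the mice that gave the calls, so that the kept direction is no independent check. The replicate numbers do not pair the mice (r of deviations -0.05 to 0.14), and the replicate block gave 2410 calls (1205 higher, 1205 lower). The mouse number as a block gave 2251. Among the 138 called named genes, 115 were called whichever mouse was left out.

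Signs turned in 6 named genes, of which only Arntl was called (-0.23 within replicates 5 to 7). Ccl2 was at 0.038 within replicates 1 to 4 and at -0.15 to 0.012 without 1 mouse. Cd68 was at 0.0095 with array weights, at 0.11 within replicates 1 to 4 and at -0.092 to 0.15 without 1 mouse. Cpa1 was at 0.0088, 0.14 and -0.061 to 0.048 in the same settings. Elane was at 0.14 within replicates 5 to 7. Timp1 was at -0.024 under cyclic loess, at -0.24 within replicates 5 to 7 and at -0.039 to 0.067 without 1 mouse. The causes were not tested. Probe sets near an intensity of 20 give only rough folds, and the number of mice limits what small differences can be called.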

Other observations

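Whole gene families, some of whose members are also in the lists, were counted in the same fit. Over all tested genes 8.46% were called higher and 9.05% lower. Of 67 tested ribosomal protein genes of the Rps and Rpl families, 18 were higher in CR-fed mice and none lower. The median log2 fold change over all 67 was 0.11. Of the called ones, Rpl13a was at 0.28 ± 0.06 and Rpl24 at 0.27 ± 0.06 (SE). The count of higher genes was 26 under cyclic loess scaling, 3 within replicates 1 to 4 and 0 within replicates 5 to 7. Of 16 glutathione transferase genes, 4 were higher and none lower.

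Among P450 families, 3 of 4 Cyp2b genes and 5 of 11 Cyp2c genes were higher and 1 Cyp2c gene was lower, whereas 3 of 8 Cyp2d genes (Cyp2d9, Cyp2d40 and Cyp2d13) were lower and none higher, and none of 4 Cyp3a genes was called. Of 9 sugar transferase (Ugt) genes 4 were lower, of 6 sulfotransferase (Sult) genes 3 were lower, and neither family had a member called higher.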
